A study of Xenopus laevis with 8 samples.

Results

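This account concerns 107 of 15491 probe sets (0.691%) whose signal was moderately and consistently lower in Xenopus laevis foregut endoderm cultured with mesoderm than in endoderm cultured alone. Foregut explants of frog embryos were cut at stage 15 and kept in dilute MBS medium until stage 23. In 4 samples the explant was left intact, and its endoderm was isolated from the mesoderm at the end of culture (AEM, sets 1 to 4, "with mesoderm"). In the other 4 samples the endoderm was separated first and cultured alone (AE, sets 1 to 4, "alone"). No transgene, mutation or added factor is named for either group, and mesoderm in culture and a late isolation came together, so their effects cannot be told apart. Total RNA of each sample was hybridised to 1 Affymetrix array. Values below are log2 of the deposited RMA intensity of a probe set, and a difference is with mesoderm minus alone within a set. The ± after a difference is the SD over the 4 sets.

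A probe set belonged to the group when its difference was at most -0.25 in each of the 4 sets, its mean difference lay from -0.7 to -0.4, and its mean level alone was above 6. Of the 108 probe sets that met this rule, that of arl4a was left out. The 107 were therefore chosen by the very contrast described here. Their differences are given as a description, and counts of them in fits over all probe sets are printed only beside the share of all probe sets. A total of 29 of them carried a gene name, for 28 genes, and 78 had no name or only a clone number. Among the named genes tsc22d3 (-0.67), a glucocorticoid-induced gene, and gpd1 (-0.69), an enzyme next to glycolysis, are not described further. A further 26 named probe sets, of 25 genes, are described below.

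During these stages the foregut endoderm forms the precursors of liver, pancreas, lung and thyroid under signals from the mesoderm beside it. The Wnt, BMP and FGF pathways carry much of that exchange, and inhibitors and receptors on the endoderm shape the response. Xenopus laevis is an allotetraploid frog, so many genes exist as a pair of related copies, marked .L and .S, and different probe sets can report different copies of 1 gene. In a sample of many cells, fewer cells of a type and less RNA per cell cannot be told apart.

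The tissue label was checked with markers. Of 14 endoderm markers 12 were measured, with darmin, which encodes a secreted protein of a peptidase family made in endoderm, at 13.31 with mesoderm and 13.31 alone, and foxa1, a transcription factor of endoderm, at 11.66 and 11.67. The summed linear intensity of the endoderm markers ran from 19722 to 22330 with mesoderm and from 18679 to 25270 alone. All 9 blood and vascular markers measured had mean differences above 0, though only lcp1 passed the test within sets. The mean differences ran from 0.03 (hba1 and kdr) to 2.08 ± 1.52 (mpo), and 3 of the 9 had a mean level under 6. The list median was -0.14, 0.195, 0.341 and 0.336 in sets 1 to 4. The summed intensity of these markers was 2544 to 4946 with mesoderm and 1149 to 2321 alone, and the 2 ranges did not overlap. Mpo was the brightest of them with mesoderm (10.62, against 8.55 alone). A linear sum weighs bright genes most, so the gap between the sums does not speak for each marker of the list. The part of the blood and vascular signal in the lower signals below was not tested. Background signal differed most in set 4. The 17 tag control probe sets, which match no frog transcript and show background, had a median difference of 0.43 in set 4, against -0.11, 0.06 and -0.14 in sets 1 to 3. The 10397 probe sets with a level alone above 6 had medians of -0.10 in set 4 and 0.00 in each of sets 1 to 3.

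The 107 probe sets had a median difference of -0.51, where the median over all 15491 was 0.01 and that over the 10397 above the level floor was -0.03. The range was fixed by the rule. Set by set, the medians of the 107 were -0.42, -0.49, -0.41 and -0.65 in sets 1 to 4. The lowest single difference, -1.65, was in set 4. Set 4 held the largest difference of 54 of the 107 (50.5%), and it held the largest absolute difference of 54.4% of the probe sets above the floor. The smallest difference fell in set 3 for 36, in set 1 for 35, in set 2 for 21 and in set 4 for 15.

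**Figure D1:**
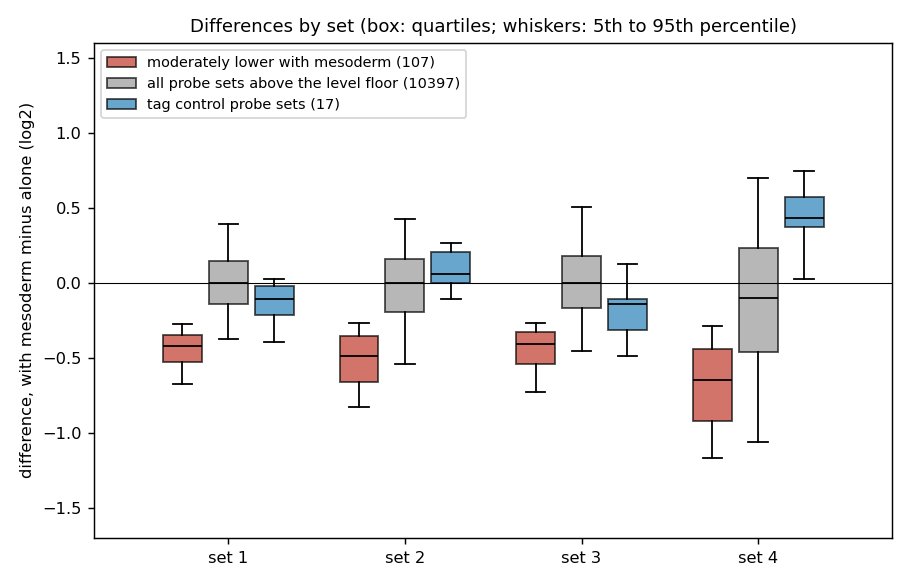
Difference with mesoderm minus alone (log2) in each of the 4 sets for the 107 probe sets moderately lower with mesoderm, the 10397 probe sets above the level floor and the 17 tag controls. Boxes are quartiles, whiskers run from the 5th to the 95th percentile, and in set 4 the 107 have a median of -0.65 while the tag controls have one of 0.43.

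Levels of the 107 covered most of the range above the floor of 6 set by the rule, where the highest mean level alone was 14.01. Their mean levels alone ran from 6.12 to 12.63 with a median of 8.35, where the probe sets above the floor had a median of 8.04. They made up 0.753% of the probe sets with a level alone from 6 to 7, 0.924% from 7 to 8, 1.22% from 8 to 9, 1.17% from 9 to 10 and 1.25% above 10. The mirrored rule, with every difference at least 0.25 and the mean from 0.4 to 0.7, was met by 51 probe sets. Those made up 0.515%, 0.655%, 0.59%, 0.309% and 0.156% of the same levels. In set 4 the median difference of all probe sets at these levels went with level too, at 0.15, -0.07, -0.15, -0.23 and -0.28. The part of set 4 in the unequal numbers of lower and higher probe sets was not tested. The SD of the level alone over the 4 sets had a median of 0.37 for the 107 and 0.34 for the probe sets above the floor, a spread between sets of similar size.

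**Figure D2:**
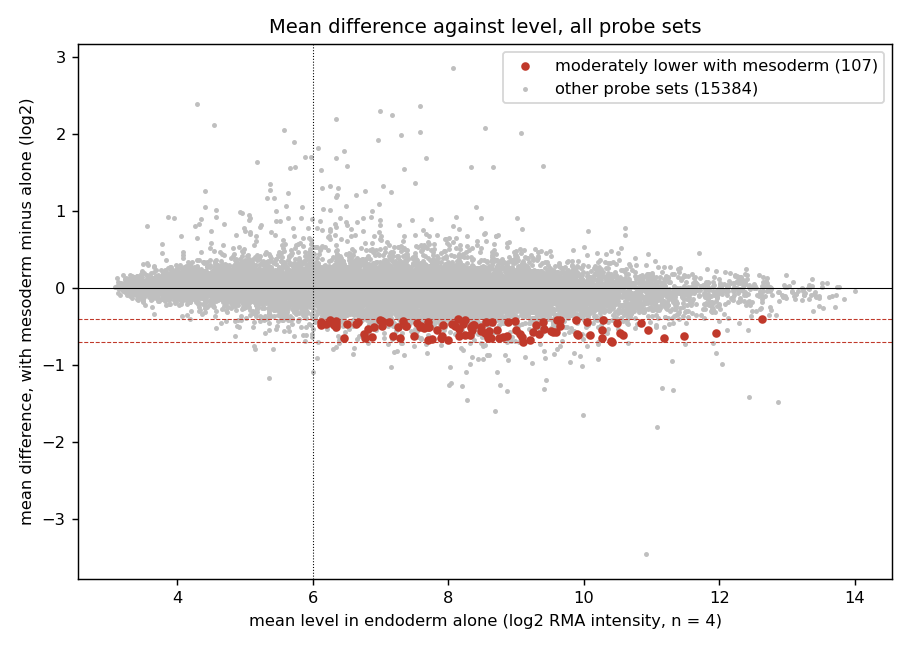
Mean difference with mesoderm minus alone (log2) against the mean level alone (log2 RMA intensity, n = 4) for 15491 probe sets. The 107 chosen probe sets lie in a band from -0.7 to -0.4 (dashed lines), right of the level floor of 6 (dotted line), at levels from 6.12 to 12.63.

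Between samples the 2 conditions mostly overlapped. In 22 of the 107 all 4 samples with mesoderm lay below all 4 alone, beside 0.859% of all probe sets and 1.05% of those above the level floor. Among these 26 this held for pdcd4.S, nfe2, upk1b and qscn6l1. For the other 22 of the 26 at least 1 sample with mesoderm reached the range of the samples alone, and the lower value appears within a set. In limma without a set term, which called 0 probe sets lower at an adjusted p under 0.05 (0%), 0 of the 107 were called. At an unadjusted p under 0.05 the same fit had 47 of them, beside 1.17% of all probe sets. With the set as a block, limma called 20 probe sets lower (0.129%) and again 0 of the 107. At an unadjusted p under 0.05 that fit had all 107, beside 5.42% of all. With the set as a random effect 5 of the 107 were called (0.168% of all), and within sets 1 to 3 alone 27 were (0.691% of all). Since the rule used this contrast, nothing is read from these counts.

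A set that took no part in the choice was free to go either way. When the rule was applied to 3 sets and the remaining set was read, the chosen probe sets were below 0 in it more often than all probe sets above the level floor, which were not matched to them for level. In set 4 the median difference went down with level, as given before, and the part of level in the set 4 count was not tested. With set 1 left out, 177 of 198 (89.4%) were below 0 in set 1, against 50.2% of all above the floor. With set 2 left out, 126 of 131 (96.2%) were below 0 in set 2, against 49.8%. With set 3 left out the count was 165 of 209 (78.9%), against 49.2%, and with set 4 left out it was 124 of 164 (75.6%), against 57.4%. The median differences in the set left out were -0.25, -0.40, -0.22 and -0.38, against 0.00, 0.00, 0.00 and -0.10 for all above the floor. They are smaller than those of the 107, as the set left out did not have to reach -0.25; 49.5%, 70.2%, 47.4% and 61.6% of the chosen did so, against 11.7%, 19.5%, 16.2% and 37.8% of all. Probe sets chosen by the mirrored rule were below 0 in the set left out in 8.0%, 27.4%, 23.5% and 44.3%. The 4 readings share sets, so they are not independent of each other. Each rests on 1 pair of arrays, whose probe sets are not replicates. The 4 lists chosen this way are not the 107, and 91, 83, 88 and 79 of their probe sets were among the 107. This reading was chosen after seeing the data and is a description, not support for the 107.

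**Figure D3:**
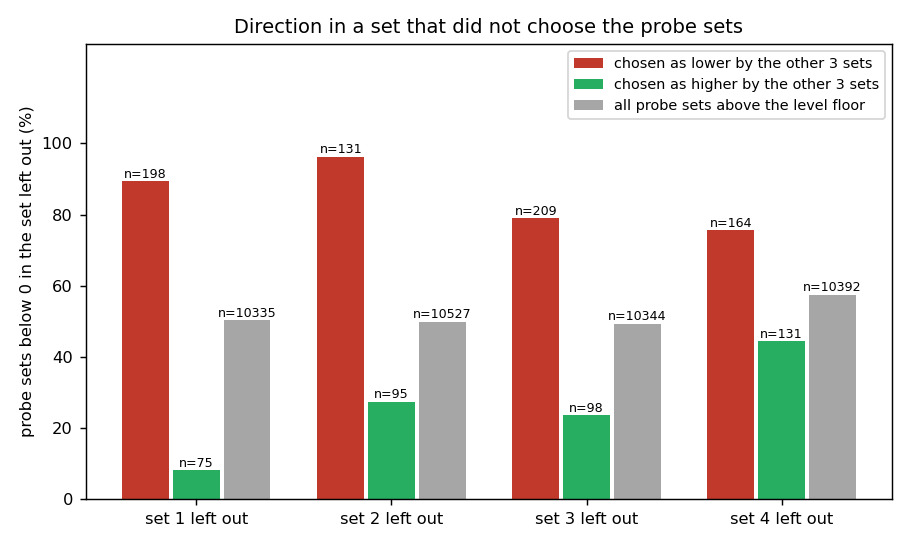
Share of probe sets below 0 (%) in a set that took no part in choosing them: those chosen as lower by the other 3 sets, those chosen as higher by the mirrored rule, and all probe sets above the level floor. Those chosen as lower stand at 89.4%, 96.2%, 78.9% and 75.6% in sets 1 to 4, above the 50.2%, 49.8%, 49.2% and 57.4% of all.

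Named genes of cell signalling had 5 probe sets, at -0.64 to -0.44. The function groups used here were assigned after the names were seen, so nothing is read from their sizes. Fzd8, a frizzled receptor for Wnt ligands, had levels of 8.50, 7.69, 8.01 and 8.23 with mesoderm in sets 1 to 4, against 8.87, 8.64, 8.35 and 9.16 alone. Its difference was -0.64 ± 0.34, a level 1.56-fold lower, and sets 2 and 4 (-0.95 and -0.92) exceeded sets 1 and 3 (-0.37 and -0.33). The 2 groups overlapped. A second fzd8 probe set, of the copy fzd8-a, stood at background on every array (4.48 with mesoderm, 4.39 alone).

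Tll1 (Tll in the file) encodes a tolloid-like metalloprotease of the family that cleaves the BMP inhibitor chordin and procollagens. It read 8.83, 8.50, 9.45 and 8.23 with mesoderm, against 9.13, 9.29, 9.88 and 9.08 alone, a difference of -0.59 ± 0.27. Set 3 was the highest in both conditions, so its sample with mesoderm exceeded 3 of the samples alone. Cib1, a small calcium-binding protein that attaches to integrins, read 7.93, 8.69, 8.38 and 8.04 with mesoderm, against 8.64, 9.36, 8.65 and 8.84 alone (-0.61 ± 0.24). Only its set 2 sample with mesoderm reached the range of the samples alone. The probe set of the other cib1 copy differed by -0.05 ± 0.13 at a level of 7.24 with mesoderm and 7.29 alone.

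The remaining signalling genes were dim. Of the 26 described probe sets, 8 had at least 1 sample with mesoderm within the range of the tag controls on the same array (terf1, ptprs, hunk, btbd6, tmem54, ica1, sirt5 and lpcat4). For terf1, hunk and btbd6 all 4 were. Samples alone lay in that range too, 2 each for terf1, hunk, btbd6, ptprs and ica1 and 1 each for sirt5 and tmem54. The size of the differences of these 8 is therefore uncertain. Ptprs, a receptor tyrosine phosphatase that binds proteoglycans, read 6.80, 5.64, 5.23 and 5.81 with mesoderm, against 7.07, 6.03, 5.95 and 6.31 alone (-0.47 ± 0.19). Its set 1 samples were the highest of both groups, and its set 3 sample with mesoderm was near the tag control median of that array (5.15), so the set 3 difference was read against background. Hunk, a serine/threonine kinase of the AMPK-related family, averaged 5.81 with mesoderm and 6.25 alone (-0.44 ± 0.20), and 2 probe sets of its other copy stood at -0.41 ± 0.44 and -0.20 ± 0.35, each above 0 in set 3 (0.13 and 0.27).

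**Figure D4:**
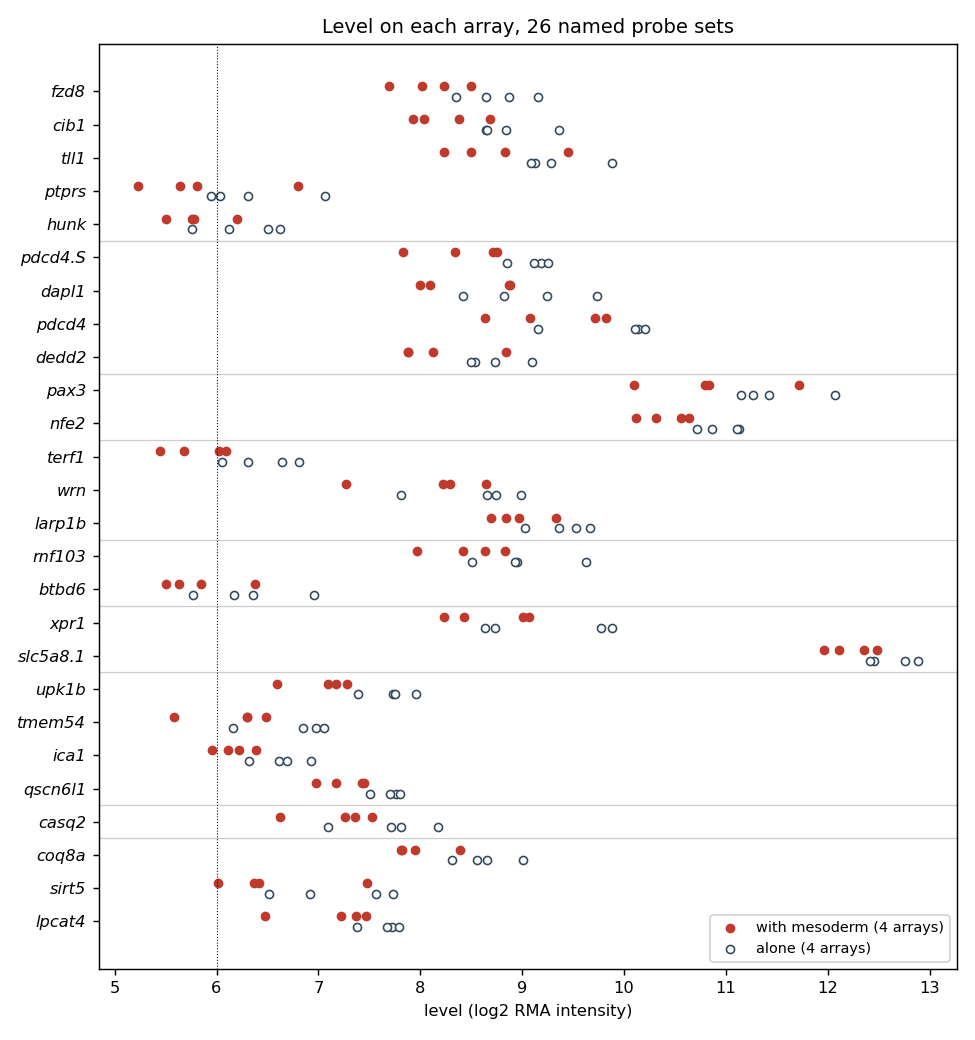
Level (log2 RMA intensity) on each array of the 26 named probe sets, with the 4 samples with mesoderm (filled) drawn above the 4 alone (open), in the groups used in the text. The conditions overlap for most genes and stand apart for pdcd4.S, nfe2, upk1b and qscn6l1; the dotted line is the level floor of 6.

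Genes named for cell death had 4 of the probe sets, at -0.69 to -0.54. Pdcd4 binds the translation initiation factor eIF4A and holds back translation of some mRNAs, and in mammals it is degraded after growth factor signals through S6 kinase. Both of its probe sets were among the 107. The one annotated to the copy pdcd4.S read 8.72, 8.75, 8.34 and 7.83 with mesoderm, against 9.19, 9.25, 9.12 and 8.85 alone. All 4 samples with mesoderm lay below all 4 alone, and the difference of -0.69 ± 0.26 was the largest of the 26. The probe set listed as pdcd4, its copy unstated, read 8.63, 9.72, 9.83 and 9.07 with mesoderm, against 9.16, 10.14, 10.11 and 10.20 alone (-0.59 ± 0.38). Here set 1 was low in both conditions and set 4 gave the widest difference, -1.13. Leaving out set 4 brought this mean to -0.41.

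Dapl1, a small relative of death-associated protein 1 known from dormant ribosomes of frog and zebrafish eggs, read 7.99, 8.87, 8.09 and 8.88 with mesoderm, against 8.42, 9.24, 8.82 and 9.74 alone (-0.60 ± 0.23). Its second probe set, from another gene number of dapl1, was below 0 in all sets too, at -0.58 ± 0.42, and nearest to 0 in set 2 (-0.03). Dedd2, a death effector domain protein of the nucleus, read 8.84, 8.13, 7.88 and 7.88 with mesoderm, against 9.10, 8.74, 8.54 and 8.50 alone. Its difference was -0.26 in set 1 and from -0.66 to -0.61 in the other sets.

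The brightest named probe set belonged to a transporter. Slc5a8.1 (smcte in the file), a sodium-coupled carrier of lactate and other monocarboxylates, read 12.11, 11.96, 12.48 and 12.35 with mesoderm, against 12.45, 12.41, 12.75 and 12.89 alone. It had the smallest difference of the 26, -0.40 ± 0.12, or 1.32-fold lower. Xpr1, the phosphate exporter of animal cells, read 8.233, 9.068, 8.432 and 9.003 with mesoderm, against 8.636, 9.777, 8.731 and 9.881 alone (-0.57 ± 0.27). Its levels were high in sets 2 and 4 and low in sets 1 and 3 in both conditions.

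Among genes of membranes and the secretory pathway, upk1b stood apart in its samples. It encodes a uroplakin, a tetraspanin of the apical membrane of the bladder lining in mammals. Its levels were 7.09, 6.59, 7.28 and 7.18 with mesoderm, against 7.73, 7.39, 7.75 and 7.95 alone, with no overlap and a difference of -0.67 ± 0.15. Qscn6l1, a sulfhydryl oxidase that makes disulfide bonds in secreted proteins (its name fits both qsox1 and qsox2), read 6.97, 7.45, 7.42 and 7.17 with mesoderm, against 7.51, 7.76, 7.70 and 7.80 alone (-0.44 ± 0.17). These groups did not overlap either. Tmem54, a membrane protein, differed by -0.59 ± 0.11 between means of 6.17 with mesoderm and 6.76 alone, and another probe set of the same name stood near background at -0.07. Ica1, a membrane-curving protein of the Golgi and of secretory granules, averaged 6.17 with mesoderm and 6.64 alone (-0.47 ± 0.18).

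Some of the enzymes act on lipids or in mitochondria. Coq8a, an atypical kinase needed to make coenzyme Q, read 7.82, 8.39, 7.95 and 7.81 with mesoderm, against 8.32, 9.01, 8.56 and 8.66 alone (-0.64 ± 0.15). The probe set of another coq8a gene number was lower in every set as well, at -0.30, -0.17, -0.52 and -0.94, and missed the rule in set 2. Sirt5, a mitochondrial enzyme that removes succinyl groups from lysines, read 6.01, 7.47, 6.42 and 6.36 with mesoderm, against 6.51, 7.73, 6.92 and 7.57 alone. Its difference of -0.61 ± 0.41 had the widest spread of the 26, with -1.21 in set 4, and it was -0.42 without that set. Lpcat4, an acyltransferase that remodels phospholipids, averaged 7.13 with mesoderm and 7.64 alone (-0.51 ± 0.30), with -0.91 in set 4.

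**Figure D5:**
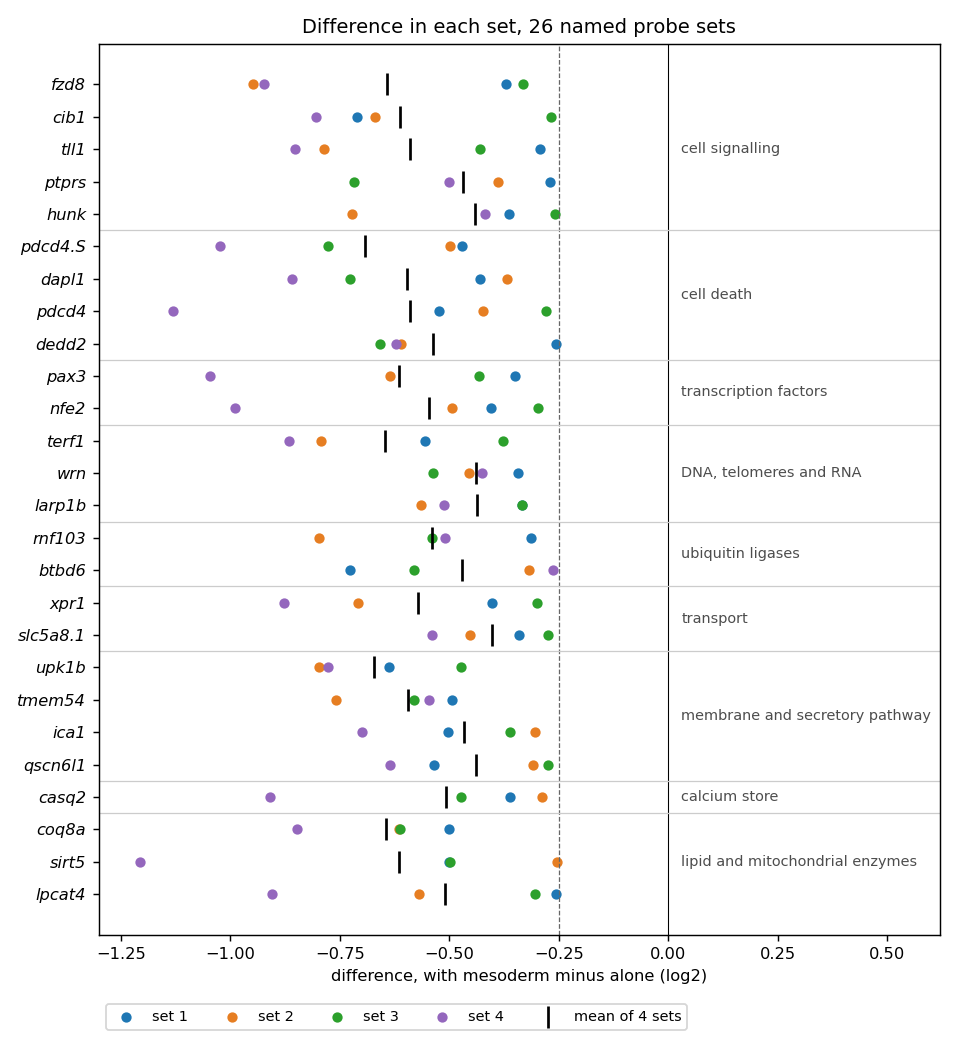
Difference with mesoderm minus alone (log2) in each set for the 26 named probe sets, with the mean of the 4 sets as a black tick. Every point lies at or left of -0.25 (dashed line) because the rule required it, and set 4 gives the most negative point for 16 of the 26.

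Genes of DNA, telomeres and RNA gave 3 probe sets. Terf1, a shelterin protein that binds telomere repeats, read 6.09, 6.02, 5.68 and 5.44 with mesoderm, against 6.65, 6.81, 6.05 and 6.31 alone (-0.65 ± 0.22). All 4 of its samples with mesoderm lay within the tag control range, and that of set 4 below the tag control upper quartile of its array (5.63). Wrn, a RecQ helicase known in frog egg extracts as FFA-1, a factor of replication foci, had the most even difference of the 26, -0.44 ± 0.08. Its levels were 8.65, 8.29, 7.27 and 8.23 with mesoderm, against 8.99, 8.74, 7.81 and 8.65 alone. Set 3 was the lowest in both conditions and the groups overlapped. Larp1b, an RNA-binding protein of the La-related family, read 9.33, 8.96, 8.69 and 8.84 with mesoderm, against 9.67, 9.53, 9.02 and 9.36 alone (-0.44 ± 0.12). Its gene number was given to 3 probe sets with mean levels from 4.47 to 9.18, so the identity of this one is uncertain. The 2 further probe sets differed by -0.04 and -0.01. The first (6.34 with mesoderm, 6.38 alone) was within or near the tag control range and the second was at background.

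Both rnf103 and btbd6 belong to ubiquitin ligases. Rnf103 (x-kf-1a in the file), a ligase of the endoplasmic reticulum membrane, read 8.64, 8.83, 7.97 and 8.42 with mesoderm, against 8.95, 9.63, 8.51 and 8.93 alone (-0.54 ± 0.20). The probe set of its partner copy, x-kf-1b, was lower in all sets, at -0.19, -0.43, -0.17 and -0.30. Btbd6 (P7E4 in the file), an adaptor of cullin ligases that acts in neuron formation in zebrafish, averaged 5.84 with mesoderm and 6.31 alone (-0.47 ± 0.22), with its widest difference in set 1 (-0.73). All 4 of its samples with mesoderm lay within the tag control range too, and that of set 4 (5.51) below the upper quartile.

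Some names point to tissues other than endoderm. Pax3, a homeobox factor of neural crest, neural tube and muscle precursors, read 11.72, 10.79, 10.83 and 10.10 with mesoderm, against 12.07, 11.43, 11.27 and 11.15 alone (-0.62 ± 0.31). That level is in doubt as one of pax3: the same gene number was given to 4 probe sets with mean levels from 4.31 to 12.15, and a probe set the file lists as Pax3 stood at background, at 4.46 with mesoderm and 4.22 alone. Nfe2, a factor of red cell and platelet precursors, read 10.31, 10.64, 10.56 and 10.12 with mesoderm, against 10.72, 11.13, 10.86 and 11.11 alone, with no overlap (-0.55 ± 0.31). Its number too was shared by 5 probe sets, at mean levels from 4.39 to 10.68, whose other 4 differences were -0.43, -0.01, 0.09 and 0.23. The identity of both is therefore uncertain.

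Casq2, the calcium-binding calsequestrin of the cardiac muscle store, read 7.35, 7.52, 6.62 and 7.26 with mesoderm, against 7.71, 7.81, 7.09 and 8.17 alone (-0.51 ± 0.28). Marker lists of those tissues were read beside these genes. Of the neural markers 2 of 7 measured were below 0, and their summed intensity was 617 to 704 with mesoderm and 365 to 997 alone. Of the muscle and somite markers 1 of 6 was below 0, with sums of 343 to 529 with mesoderm and 308 to 497 alone. The blood markers all had mean differences above 0, though not a list median above 0 in every set, as given before. Epidermis markers had 2 of 6 below 0, notochord markers 1 of 5 (sox9, which passed the test within sets), cardiac and lateral plate markers 2 of 9 and the 1 measured marker of ciliated cells 0. In set 4 the neural, muscle, notochord and cardiac lists had median differences of 0.482, 0.599, 0.508 and 0.737. In sets 1 to 3 their medians lay from -0.165 to 0.176. Mean levels were under 6 for 5 of the 7 neural and 3 of the 6 muscle markers. Tag controls were higher with mesoderm in set 4 too, and the part of background in these counts was not tested.

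Probe sets of the same gene gave a further reading. Of the 25 genes 10 had another probe set outside the 107, 18 in all. Of the 11 with a level alone above 6, 9 had a mean difference below 0 and 5 were below 0 in all 4 sets, where 55.7% and 13.3% of all probe sets above the floor were. Those 5 were of coq8a, dapl1, rnf103, pax3 (a further probe set under the doubtful number, -0.54) and nfe2 (-0.43). The 7 dimmer ones stood between -0.07 and 0.24. These probe sets come from the same arrays and the same contrast, so they are no independent support.

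The 78 probe sets without a gene name covered much the same levels as the named ones. Their levels alone ran from 6.12 to 11.95 and their median difference was -0.50, where the 26 described had -0.56. Of the 107, 27.1% had a gene name, against 37.9% of all probe sets. The brightest unnamed one, listed as clone MGC64453, read 11.62, 11.75, 11.30 and 10.84 with mesoderm, against 11.91, 12.30, 11.77 and 11.83 alone, with no overlap. Clone MGC115550 was present with 2 probe sets, at -0.43 ± 0.07 and -0.60 ± 0.34, and MGC115068 with 2 that share a target, at -0.62 and -0.67. In all, 8 of the 107 had a suffix (x, s or a) that marks probes shared between transcripts, 7.5% against 9.3% of all, and none of these is among the 26.

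Values at the edges of the rule lay close to each other. At the limit for each set, a clone at -0.2504 was inside and hnrpk, an RNA-binding protein, at -0.2497 was outside. For the mean, an unnamed probe set at -0.6967 was inside and tacstd1 at -0.7022 outside, and at the upper end slc5a8.1 at -0.4017 was inside and an unnamed one at -0.3976 outside. At the level floor the nearest were 6.12 inside and 5.99 outside.

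Functional gene lists around these genes held no call in limma, with or without the set block, in either direction. With the brightest probe set of each gene, 11 of 18 measured membrane traffic genes, 9 of 15 lipid genes, 6 of 11 genes of insulin, FOXO and mTOR signalling and 5 of 9 ubiquitin ligase and deubiquitinase genes were below 0. Their medians were -0.04, -0.10, -0.10 and -0.05. Of the others, 2 of 4 autophagy genes, 7 of 15 oxidative stress genes, 9 of 19 amino acid genes, 8 of 18 Kruppel-like, zinc finger and related factors, 8 of 17 chromatin modifiers and 9 of 22 growth factors and receptor kinases were below 0. Their medians ran from 0.00 to 0.03. Over all 3967 named genes 1877 were below 0 and the median was 0.01. The fit within sets called 10 of the 3967 lower and 12 higher. Calls were thus rare among all named genes, and nothing is read from their absence in these lists. No probe set read for these lists was among the 107. Over all named genes, 24 of the 3967 brightest probe sets were, so nothing is read from this either.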

How the data were processed

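The 8 arrays, 4 per condition, were analysed from the deposited table of RMA intensity values, with 1 linear value per probe set. RMA (background correction, quantile normalization, summary per probe set) is named in the submitters' processing notes, and the RMA version is not given in the sources used here. The intensity values, per the file headers, name a second data set, so they may have been normalized with it. The deposited series matrix held identical values (124888 of 124888 cells). Log2 was taken of all values. After 120 control probe sets were left out, 15491 were tested with limma 3.58.1 in R 4.3.3, with Benjamini-Hochberg adjustment over all of them and a call at an adjusted p under 0.05. The 17 tag controls served as background.

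Names came from the file's name column and a RefSeq gene table (Xenopus_laevis_v10.1). Of the 26 described names, 4 matched by symbol, 7 by synonym and 14 by the gene number after LOC, and 1 was kept as in the file. The rule for naming had left LOC names out; those with a current symbol were added once they were seen. All levels were to be given for called, non-overlapping and the 12 brightest named genes and for 1 of each function. Function groups were assigned from textbook roles after the member names were seen.

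The members and the gene lists were chosen with earlier results of these data known. Set numbers were taken to pair the arrays: the correlation of paired deviations from the condition means was 0.84, 0.85, 0.69 and 0.32 in sets 1 to 4, all above 0.1. The labels do not say whether sets are separate clutches or days, so p-values measure the spread between these samples. Alternatives were other normalizations, thresholds, set as a block, and leaving out arrays and sets; reading a left-out set was chosen after seeing the data. Promoter and protein features were not used here, and 1 named member and 1 gene list are not reported here. The number of arrays limits precision.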

Additional observations from a re-analysis of the deposited data

Results flagged for a closer look

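Of the 78 groups of 4 values examined over the 26 named probe sets (levels in each condition and differences), 2 held a value far from the other 3, and chance alone flags about 1 in 20. For the probe set listed as pdcd4, the sample alone of set 1 (9.16) lay below the other 3 (10.11 to 10.20), with a gap of 0.905 of the range. For dedd2, the difference of set 1 (-0.26) lay above those of the other sets (-0.66 to -0.61), with a gap of 0.879 of the range.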

How the results depend on the processing

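The membership of the group depended on scaling and on thresholds near it. Quantile normalization, cyclic loess and median centring left 92, 91 and 100 probe sets that met the rule, of which 70, 73 and 93 were among the 107. Centring each array on the tag controls left 47, of which 26 were among the 107 and 5 among the 26 described. All 107 stayed below 0 in all 4 sets under these scalings, except 1 after quantile normalization. For the 2 centrings this was fixed in advance, as each shifts all probe sets of an array alike. Their largest rise, in set 3 under tag control centring, took the median of the 107 from -0.409 to -0.209. A difference held at or below -0.25 by the rule could not pass 0 with that shift. The mirrored rule gave 51 as deposited, and 61, 62, 54 and 28 under those 4 scalings. With every difference below 0 in place of -0.25 the rule gave 301, and with -0.35 it gave 31. Leaving out 1 set gave 131 to 209. The median of the 107 ran from -0.563 to -0.464 without 1 set and from -0.552 to -0.495 over the scalings. For the 26 described probe sets, 208 of 208 recomputed differences were below 0 and within 1 SD of the value given. Without 1 set this was fixed in advance, since the rule held every difference at or below -0.25. Leaving out 1 of 4 values also cannot move their mean by 1 SD. Median and tag control centring moved every mean difference alike, by 0.010 and -0.043, so nothing is read from this count.

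With the replicate block, limma called 20 probe sets lower and with the set as a random effect 26, of which 0 and 5 were among the 107. After cyclic loess with the replicate block it called 8 and 0. At an adjusted p under 0.1 with the block, a threshold chosen after seeing the data, it called 44 and 8. Without the block, leaving out 1 array or set gave 0 to 1 probe sets, none among the 107. With the replicate block, leaving out sets 1, 2, 3 and 4 in turn gave 1, 0, 7 and 107 probe sets, of which 0, 0, 0 and 27 were among the 107. The cause was not tested.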
